A study of Brugia malayi with 68 samples.

Results

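The 200 genes described here are abundant transcripts of the filarial nematode Brugia malayi whose level was nearly the same in adult females, adult males and microfilariae. They were chosen from 11590 genes by their counts in worms from untreated gerbils. Counts were scaled to CPM (each gene's share of the library total, in parts per 1e6) and averaged over the 6 female, 6 male and 5 microfilaria libraries. Of the 2209 genes whose highest stage mean was at most 1.5 times the lowest, the 200 with the highest mean over the 3 stages were kept. Only 880 genes were at least as abundant as the least abundant member by this mean, so the members are 200 of those 880. The remaining 680 serve here as the comparison of like abundance. They match the members only in passing this lower limit on the mean over the stages, not within a single stage. The stage means and ratios in untreated worms chose the members and are given without a test.

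The study treated gerbils that carried patent B. malayi infections, begun with infective larvae placed in the peritoneal cavity, and isolated the worms from that cavity 1 or 7 days later. The doses were 1 mg/kg of albendazole, 6 mg/kg of diethylcarbamazine and 0.2 mg/kg of ivermectin, and further gerbils had no drug (the labels call these control and name the solvent DMSO). Each day was run in 3 biological replicates, here called rounds, and in each round the treatments were run side by side. Females, males and microfilariae were separated and sequenced as bulk RNA, which gave 68 libraries in 24 groups, 20 groups of 3 and 4 groups of 2 (microfilariae at day 7). No strain or host age is given in the sources used here.

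Females, males and microfilariae differ in tissue make-up: the female body holds ovaries and developing embryos, the male body a testis, and the microfilaria is the early larva that circulates in the host. Genes that all cells need, such as those of protein synthesis, energy supply and the cytoskeleton, are often abundant in every stage, and genes with steady levels are commonly used as references in expression assays. A CPM value is a share of one library's counts, not an amount per worm or per cell, and it also rises with transcript length. In bulk RNA, fewer cells of a type and less RNA per cell cannot be told apart. The files list WormBase gene identifiers without names; none of the 11590 could be paired with the reference table of 11688 genes, so the roles of the members are not given here.

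The libraries held between 2112032 and 37822431 counts and between 10261 and 11229 genes with a count. The least abundant member still had at least 235 CPM as its mean over the stages, and all 200 members passed the filter on low counts in every fit. In 7 libraries, named further on, more than 10% of the members stood over 1.5-fold from their stage median, and the main counts and medians that rest on these libraries are given with and without them. Female-restricted genes (156 genes at 10 CPM or more in untreated females and at least 16 times their level in either other stage) stood 8.14 to 12.5 percentage points of the untreated female level above the median untreated male in 4 male libraries. These were replicate 1 of albendazole at day 1, replicate 1 of diethylcarbamazine at both days, and replicate 2 of ivermectin at day 1; they had 1, 0, 0 and 16 members beyond 1.5-fold.

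In untreated worms the members' mean level over the stages ran from 235 to 4936 CPM with a median of 305, and their stage ratio from 1.009 to 1.496 with a median of 1.33. The highest mean lay in microfilariae for 81 members, in females for 67 and in males for 52. The members just inside the ratio limit were WBGene00227419 at 1.4946 and WBGene00228782 at 1.4962, and the genes just outside were WBGene00226673 at 1.5005 and WBGene00227641 at 1.5023. At the abundance limit, WBGene00225075 (236.1 CPM) and WBGene00225027 (235.3 CPM) were the last kept and WBGene00234042 (234.7 CPM) and WBGene00233990 (234.3 CPM) the first left out. Both limits therefore run through a continuous range of values. When untreated libraries without the departing ones were used, 164 of the 200 genes were chosen again, and 172 when the drug-treated libraries took the place of the untreated ones.

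The most abundant member, WBGene00223825, stood at 4001 ± 328 CPM in untreated females (SD, n = 6), 5015 ± 910 in males (SD, n = 6) and 5791 ± 413 in microfilariae (SD, n = 5). In the drug-treated libraries it ranged from 3578 to 5101 CPM in females, from 3958 to 5934 in males and from 5252 to 7829 in microfilariae. The ranges of neighbouring stages overlapped in both sets of libraries, and this gene stayed within 1.5-fold of its stage median in all 68 libraries. WBGene00223985, which had 1249 ± 163 CPM in untreated females (SD, n = 6), 1012 ± 129 in males (SD, n = 6) and 1322 ± 108 in microfilariae (SD, n = 5), also stayed within that limit in all 68. WBGene00233914 varied more. Its CPM ran from 3207 to 7315 in untreated females, from 3547 to 4210 in untreated males and from 2077 to 4010 in untreated microfilariae, and it passed 1.5-fold in 9 libraries, none of them among the departing ones.

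Together the 200 members took 8.0 ± 0.58% of the counts in untreated females (SD, n = 6), 7.68 ± 0.44% in untreated males (SD, n = 6) and 8.10 ± 0.14% in untreated microfilariae (SD, n = 5). In drug-treated libraries, which the choice did not use, the shares were 8.05 ± 0.58% in females (SD, n = 18), 7.53 ± 0.55% in males (SD, n = 18) and 8.02 ± 0.21% in microfilariae (SD, n = 15). The drug-treated means lay within the spread of the untreated libraries in every stage. Without the departing libraries the spread in drug-treated females fell to 0.26 percentage points around a mean of 7.88% (n = 16).

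Stage constancy carried over to libraries that the choice did not use. These libraries come from the same rounds as the untreated ones, so they are not independent of them. Departing females of day 1 round 3 occur among both, and their member deviations ran together (Pearson's r of 0.95 and 0.977 with the untreated library). In the 51 drug-treated libraries, 179 of the 200 members (89.5%) still had a highest stage mean at most 1.5 times the lowest, none went beyond 2-fold, and the largest ratio was 1.75. The same held for 24 of the 680 other genes of like abundance, which the rule had placed above 1.5 in untreated worms, and for 2220 of all 11590 genes (19.1%). Within single drugs and days, with 2 or 3 libraries per stage, the number of members within the limit ran from 131 (diethylcarbamazine, day 1) to 166 (albendazole, day 1). With TMM-scaled totals this number ran from 97 (diethylcarbamazine, day 1) to 162 (albendazole, day 1), and the pooled number was 177. For diethylcarbamazine at day 1, 33 members then went beyond 2-fold (0 on library totals), against 1 to 9 in the other drugs and days. On library totals without the departing libraries the pooled number was 183. Diethylcarbamazine at day 1 then had 166 members within the limit and 1 beyond 2-fold. Single drugs and days ran from 145 (ivermectin, day 7) to 179 (albendazole, day 1). Most of the stage differences of the 200 members kept their direction. For females against males the log2 difference had the same sign in untreated and drug-treated libraries for 186 of 200 members, and for 183 in each of the other comparisons of stages. Across the 200 members, which share libraries, Pearson's r of these differences was 0.946 to 0.951 (a description, not a test). The stage with the highest mean was the same in 176 members.

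**Figure D1:**
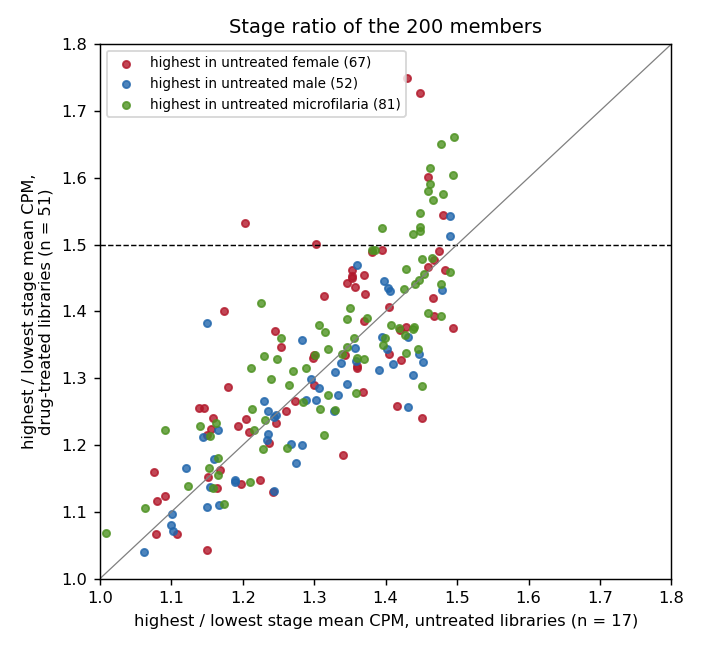
Ratio of the highest to the lowest stage mean CPM for each of the 200 members (points) in the 17 untreated libraries (x axis, used to choose the members) and in the 51 drug-treated libraries (y axis); colour gives the stage with the highest untreated mean, the dashed line marks 1.5 and the grey line equality. Of the 200 points, 179 lie at or under the dashed line and the highest stands at 1.75.

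A limit on the fold does not make the stages equal. In edgeR's quasi-likelihood test on the drug-treated libraries, with Benjamini-Hochberg adjustment over the 10876 genes tested, 117 members differed between females and males (65 higher and 52 lower in females), against 84.6% of all genes (43.5% higher and 41.0% lower). Between females and microfilariae 109 members differed (37 higher and 72 lower in females), against 77.8% of all genes (38.6% higher and 39.3% lower). Between males and microfilariae 126 differed (38 higher and 88 lower in males), against 85.5% of all genes (43.0% higher and 42.5% lower). The fitted difference lay within 1.5-fold for 193, 192 and 188 members in the same order, and for 40.8%, 46.5% and 35.9% of all genes. Its whole 95% interval lay within 1.5-fold for 149, 150 and 134 members (74.5%, 75% and 67%), against 28.5%, 31.0% and 23.9% of all genes. The members' median log2 difference depended on the scaling and on the departing libraries. For females minus males it was 0.08 with TMM scaling, 0.13 on library totals and -0.05 without the departing libraries, where all genes had 0.05, 0.12 and 0.01. For females minus microfilariae it was -0.08, -0.01 and -0.22, where all genes had -0.01, 0.09 and -0.02. The balance of higher against lower members moved with the scaling and with the departing libraries. On library totals the counts were 91 higher and 44 lower for females against males, and 60 higher and 56 lower for females against microfilariae. The medians of all genes were also above 0 on that scale, at 0.12 and 0.09, so this balance cannot be read as particular to the members. Without the departing libraries 130, 153 and 148 members were called, against 85.9%, 81.3% and 87.3% of all genes. Of these, 47 were higher and 83 lower in females than in males, 36 higher and 117 lower in females than in microfilariae, and 53 higher and 95 lower in males than in microfilariae.

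**Figure D2:**
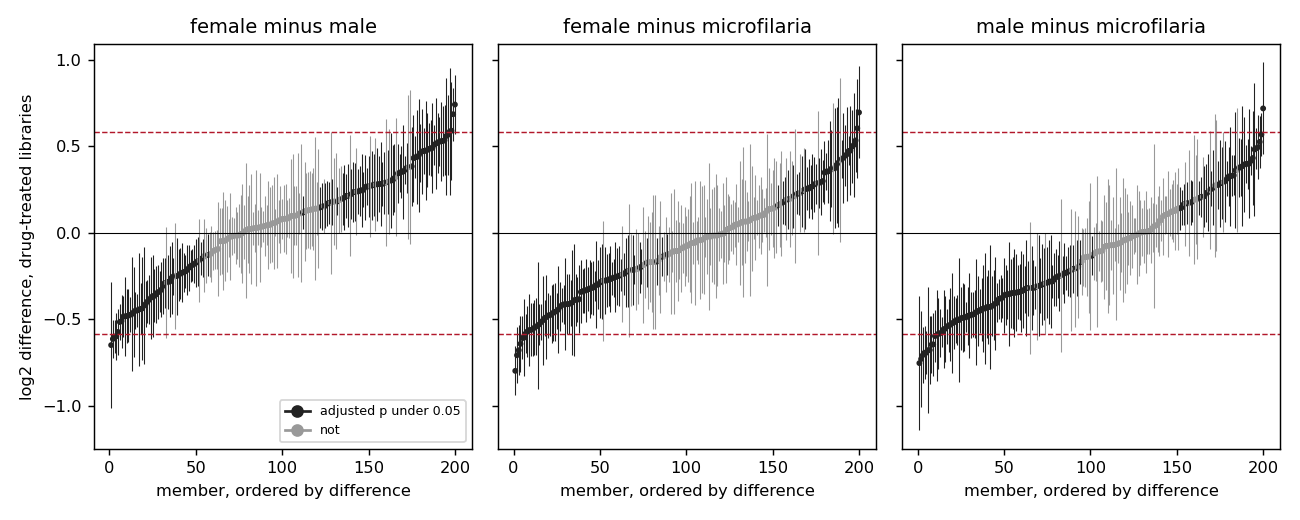
Fitted log2 differences between stages in the drug-treated libraries for the 200 members, each panel ordered by the difference, with 95% intervals as vertical lines; dark members passed the adjusted p of 0.05 and the red dashed lines mark 1.5-fold. Within those lines lie 193, 192 and 188 fitted differences from left to right.

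The members named here were picked for the smallest p, so they do not show how regular the differences of the other members were. WBGene00225838 had 176 to 228 CPM in drug-treated males (median 211) and 266 to 330 in microfilariae (median 305). The groups did not overlap, and the log2 difference, males minus microfilariae, was -0.57 ± 0.04 (SE; edgeR with Benjamini-Hochberg adjustment, adjusted p = 1.16e-15). WBGene00231441 went the other way, with 269 to 324 CPM in males (median 304) and 193 to 247 in microfilariae (median 221), also without overlap and with a log2 difference of 0.42 ± 0.04 (SE). Beside them, WBGene00233935 was higher in males by 0.57 ± 0.06 and WBGene00228830 lower by a log2 difference of -0.49 ± 0.04 (SE), with overlapping ranges.

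Against microfilariae, females had lower levels of WBGene00225716. It ranged from 119 to 274 CPM in drug-treated females (median 233) and from 309 to 484 in microfilariae (median 341), a log2 difference of -0.80 ± 0.07 (SE; edgeR with Benjamini-Hochberg adjustment, adjusted p = 3.17e-13). WBGene00234152 was likewise lower without overlap, at -0.58 ± 0.05 (SE), while WBGene00231441 and WBGene00233966 were higher in females by 0.47 ± 0.04 and 0.43 ± 0.05 (SE) with overlapping ranges. Against males, females had higher levels of WBGene00228782, one of the members at the ratio limit, with 433 to 621 CPM (median 487) in females and 247 to 344 (median 293) in males, a log2 difference of 0.69 ± 0.08 (SE). WBGene00225838 was also higher in females, by 0.36 ± 0.04 (SE), and WBGene00234045 and WBGene00233890 were lower, at -0.60 ± 0.05 and -0.61 ± 0.05 (SE), all 3 with overlapping ranges. All these differences kept their direction and passed the adjusted p under each alternative run.

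The drugs changed no member by a call. Each drug was set against no drug within a stage and day, and in these 18 comparisons edgeR called 0 of the 200 members and 0.0% of all genes at an adjusted p of 0.05 (Benjamini-Hochberg). DESeq2 also called 0 members. Within a stage and day the 3 drugs share the untreated libraries. At an unadjusted p under 0.05 the number of members was 0 in all 6 female comparisons, 0 to 18 in males and 0 to 12 in microfilariae. The highest numbers were 18 members for ivermectin in males at day 7, where 5.59% of all genes passed, 12 for albendazole in microfilariae at day 1 (4.94% of all genes) and 11 for ivermectin in males at day 1 (8.98% of all genes). Fitted differences stayed within 1.5-fold for all 200 members in 13 of the 18 comparisons. For all genes the share ran from 88.5 to 98.1% over the 18. The lowest number of members was 166 (83%), for albendazole in females at day 1, against 89.2% of all genes. Ivermectin in males at day 7 had 183 members within the limit (91.5%), against 94.2% of all genes.

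The missing calls do not show that the levels were equal. The 95% interval of the difference lay within 1.5-fold for 65 to 91 members in females, 117 to 150 in males and 158 to 189 in microfilariae, depending on drug and day. For all genes the shares were 32.5 to 42.4%, 52.7 to 64.8% and 41.7 to 58.4%. These fits left out the round and shared one spread over both days, which in females includes the departing libraries of day 1. With TMM scaling the members' medians lay farthest from 0 in females at day 1, where untreated, diethylcarbamazine and ivermectin worms each included a departing library and albendazole worms did not. There the median log2 difference from untreated was -0.21 for albendazole, 0.20 for diethylcarbamazine and 0.03 for ivermectin, where all genes had medians of -0.01, 0.00 and -0.02. On library totals the albendazole median turned to 0.03, where all genes had 0.17, and without the departing libraries it was also 0.03, where all genes had -0.01. The diethylcarbamazine median became 0.07 in both, where all genes had -0.08 and 0.01. On library totals the median farthest from 0 was -0.08, for albendazole in males at day 7. In males at day 7 the ivermectin median of 0.15 became 0.01 on library totals, where all genes had -0.10, and -0.02 without the departing libraries.

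Between days 1 and 7 edgeR called 0 members, and 0.0% of all genes, in each stage, whether untreated or drug-treated (adjusted p of 0.05, Benjamini-Hochberg), and DESeq2 called 0 members. At an unadjusted p under 0.05 there were 6 members in untreated females (2.81% of all genes) and 69 in drug-treated females (12.1%). Males had 22 members when untreated (9.43% of all genes) and 0 when drug-treated (3.19%), and microfilariae had 0 (0.688%) and 15 (4.87%). The female lists stood lower at day 7. Of 200 fitted values 177 were below 0 in untreated females, with a median of -0.28, and 180 in drug-treated females, with a median of -0.30, where all genes had -0.01 in both. With the round as a block, edgeR called 68 members between days in drug-treated females (2 higher and 66 lower at day 7, Benjamini-Hochberg), against 13.6% of all genes. Without the departing libraries that number was 11, against 1.6% of all genes, with 6 more in untreated males (1.27%) and 6 in drug-treated males (1.23%), and the female medians without the block were -0.04 in untreated and -0.07 in drug-treated females. On library totals the medians were 0.00 and -0.06, where all genes had 0.21 and 0.16. In drug-treated males and in drug-treated microfilariae the 95% interval of the day difference lay within 1.5-fold for 190 and 198 members (95% and 99%). For all genes the shares were 83.3% and 73.5%. In untreated males and microfilariae it did so for 121 and 181 members (60.5% and 90.5%), against 51.4% and 51.2% of all genes. Females went the other way, with 57 members when untreated (28.5%, against 31.5% of all genes) and 93 when drug-treated (46.5%, against 58.5%). The change between days did not differ between stages by a call: edgeR found 0 members and 0.0% of all genes in the 3 comparisons, and DESeq2 found 0. At an unadjusted p under 0.05 there were 23 members for females against males, where 5.42% of all genes passed. For females against microfilariae there were 78 (15.1% of all genes) and for males against microfilariae 1 (3.5%).

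Rounds were tested within each stage and day. With edgeR's F test of the round within stage and day (Benjamini-Hochberg over all genes of the stage), 165 of the 200 members differed among rounds in females at day 1, against 69.9% of all genes. The other counts were 75 in microfilariae at day 1 (background 40.3%), 12 in microfilariae at day 7 (6.74%), 9 in males at day 1 (8.69%), 3 in females at day 7 (8.59%) and 0 in males at day 7 (0.0%). The share of members called was 82.5% in females at day 1, and in the other sets it was at or below the background, with 37.5% in microfilariae at day 1. Without the departing libraries females at day 1 had 90 members called (38.9% of all genes), females at day 7 had 69 (30.7%), males at day 1 had 34 (14.9%), males at day 7 had 10 (1.57%), and microfilariae had 38 (30.0%) and 18 (9.05%). Without the 4 male libraries with female-restricted counts, 0 members remained called in males at day 1. Over the members, round accounted for 61.5% of the variance among the female libraries of day 1 and treatment for 12.8%, and for all genes the shares were 60.3% and 13.7%. Without round 3 the members' shares were 56.9% and 21.2%, where all genes had 53.2% and 24.1%. In males at day 7 round accounted for 16% and treatment for 24.2%, where all genes had 17.8% and 25.8%. Without round 3 the members' shares there were 26.8% and 54.8%, where all genes had 25.9% and 41.5%. With 8 libraries, treatment has 3 degrees of freedom and round 1, so treatment takes a large share even if the drugs have no effect.

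In females at day 1 the direction of the round difference depended on the scaling. With TMM scaling the members' median estimate relative to the mean of the rounds was -0.13 for round 1, -0.28 for round 2 and 0.39 for round 3 (log2), and 147 of the 165 called members had a positive value in round 3. On library totals the medians were 0.01, -0.07 and 0.03, with 84 of 157 called members positive in round 3, and without the departing libraries they were 0.08, -0.05 and -0.02, with 48 of 90 positive. Leaving out round 3 in every group reduced the called members to 81, against 34.8% of all genes. With TMM scaling, WBGene00226842 had log2 estimates of -0.38, -0.57 and 0.95 in rounds 1, 2 and 3 (edgeR, Benjamini-Hochberg adjusted p = 4.7e-05), and WBGene00227657 had -0.46, -0.82 and 1.28. Of the 18 called members below the mean in round 3, 9 were highest in round 1. WBGene00224621 had 0.78, -0.44 and -0.33, and WBGene00223433 had 0.39, -0.28 and -0.11.

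In microfilariae at day 1 the rounds differed less and in both directions, with 31 of the 75 called members above the mean in round 3 and 44 below with TMM scaling, and 42 of 73 above and 31 below on library totals. WBGene00225684 had log2 estimates of -0.50, -0.06 and 0.56 (edgeR, Benjamini-Hochberg adjusted p = 7.09e-05) and WBGene00223073 had -0.05, -0.34 and 0.38, while WBGene00222084 had 0.33, -0.08 and -0.25 and WBGene00234297 had 0.33, -0.25 and -0.08. At day 7, with rounds 1 and 2 only, the differences were smaller: WBGene00224256 and WBGene00226398 were at 0.23 in round 2 and -0.23 in round 1, and WBGene00229298 and WBGene00223765 were at -0.19 and -0.23 in round 2. In males at day 1 WBGene00225194 (0.11, -0.27 and 0.16) and WBGene00233935 (0.06, -0.21 and 0.15) were above the mean in round 3, and WBGene00230023 (0.38, -0.16 and -0.22) and WBGene00223487 (0.08, 0.34 and -0.41) below it. In females at day 7 the called members WBGene00226278 (0.31, -0.21 and -0.10) and WBGene00226522 (0.23, -0.13 and -0.10) were highest in round 1.

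Most libraries kept the members steady. For each library the log2 of CPM + 2 was compared with the median over all libraries of the stage. In 36 of the 68 libraries no member was more than 1.5-fold from that median, and in 58 at most 4 were. The shallowest library, diethylcarbamazine females of day 7 round 2 with 2112032 counts, had 0. In 61 of the 68 libraries the members passed 1.5-fold less often than the 680 other genes of like abundance. Those genes were not matched within a stage: their untreated stage ratio had a median of 2.33 and a 95th percentile of 109. Over all libraries 64 members never passed 1.5-fold, and outside the departing libraries 157 never did (32.0% and 78.5%), against 101 and 372 of the 680 others (14.9% and 54.7%). The median SD of members within groups, on the log2 scale, was 0.25 in females, 0.17 in males and 0.15 in microfilariae, against 0.31, 0.20 and 0.21 for all genes with a count. With the departing libraries left out it was 0.14, 0.16 and 0.13 for members and 0.18, 0.17 and 0.19 for all genes.

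**Figure D3:**
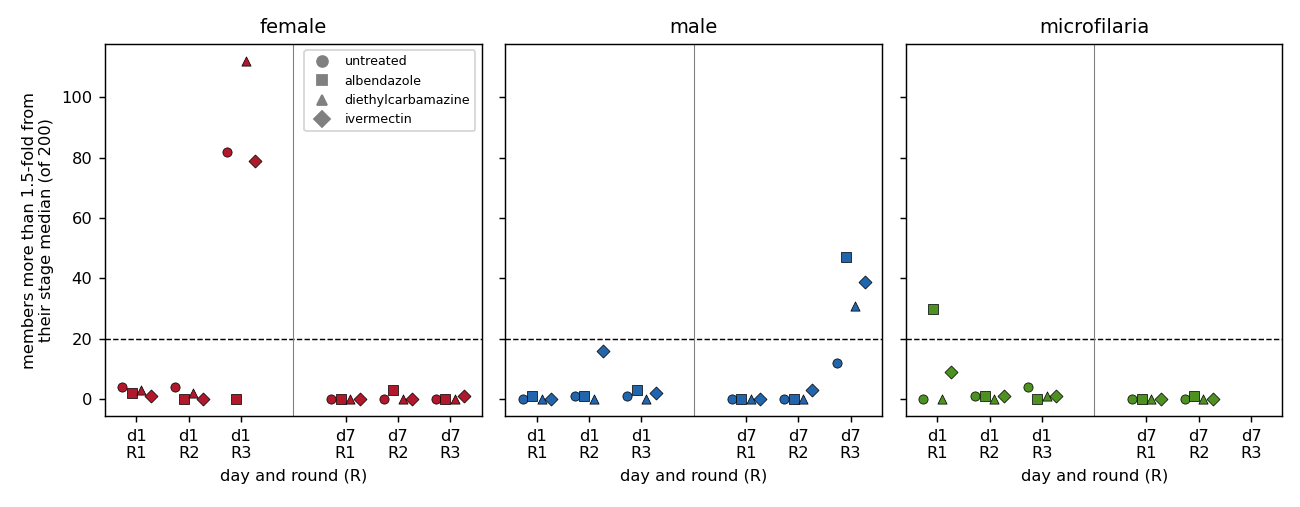
Number of members, of 200, that stood more than 1.5-fold from the median of their stage in each of the 68 libraries (points), by day and round (R) within each stage; the symbol gives the treatment and the dashed line marks 10% of the members. Points above the line are 3 females of day 1 round 3 (112, 82 and 79 members), 3 males of day 7 round 3 (47, 39 and 31) and 1 microfilaria library of day 1 round 1 (30).

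In the 7 departing libraries the share stood above 10% of the members. Among females of day 1 round 3, 112 members were beyond 1.5-fold with diethylcarbamazine (67 higher and 45 lower), 82 without treatment (41 and 41) and 79 with ivermectin (47 and 32). The albendazole females of the same round had 0. Among males of day 7 round 3, 47 members were beyond with albendazole and 31 with diethylcarbamazine, all lower, and 39 with ivermectin, 34 higher and 5 lower; the untreated males of that round had 12. Albendazole microfilariae of day 1 round 1 had 30, 28 of them lower. The next highest libraries were ivermectin males of day 1 round 2 with 16 and ivermectin microfilariae of day 1 round 1 with 9. With TMM-scaled totals the same 7 libraries stood above 10%. On that scale the departing females moved mostly upward, with 136, 97 and 109 members higher and 7, 5 and 6 lower (diethylcarbamazine, untreated, ivermectin). The departing microfilaria library no longer moved mainly downward there, with 16 members higher and 14 lower. The ivermectin males had 65 higher and 0 lower, and the albendazole and diethylcarbamazine males had 0 higher and 65 and 41 lower.

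These libraries were not shallow: they held between 10893655 and 22238217 counts. The 100 most abundant genes took 19.7 to 20.8% of the counts in the departing females and 12.1 to 14.6% in the other 21 female libraries, and 21.3% in the ivermectin males against 14.1 to 17.8% in the 21 males that did not depart. In the departing albendazole and diethylcarbamazine males this share was 14.4% each. Female-restricted genes stood at 62.5 to 73.1% of the untreated female mean in the departing females and at 86.1 to 125% in the others, male-restricted genes (633) at 0.611 to 0.728% and 1.01 to 2.87% of the untreated male mean, and microfilaria-restricted genes (41) at 0.563 to 1.69% and 0.544 to 1.37% of the untreated microfilaria mean. Male-restricted genes stood at 116% and 121% in the albendazole and diethylcarbamazine males and at 82.5% in the ivermectin males, against 70.7 to 120% in the males that did not depart. Microfilaria-restricted genes stood at 162% in the departing microfilaria library and 74.3 to 143% in the others. The part of these values in the departures was not tested.

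The departures of the adult libraries ran along a shared pattern, which the departing microfilaria library followed only weakly. Against the female median, which the 3 departing females share, 41 members were higher in each of them and 29 lower in each, and none was higher in one and lower in another beyond 1.5-fold. Males are read against their own median, so females and males share no reference library. In the ivermectin males of day 7 round 3, 31 of those 41 members were also higher (31 of the 34 that were higher there), and all 29 lower members had values below 0. In the albendazole and diethylcarbamazine males of the same round the pattern was turned over: 31 members were lower in both, 29 of them were among the 41 higher in females, and none was among the 29 lower. Across the 200 members Pearson's r with the 3 females was 0.868 to 0.915 for the ivermectin males and between -0.766 and -0.913 for the other departing males, as a description over members that share these libraries. For the departing microfilaria library Pearson's r with the females was -0.315 to -0.384, and 5 of its 28 lower members were lower in both males. The untreated males of day 7 round 3, not among the departing libraries, had r between -0.623 and -0.767 with the females. With the albendazole and diethylcarbamazine males, which share their median, they had 0.853 and 0.910. The other 680 genes gave values of like sign, 0.854 to 0.878 for the ivermectin males.

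**Figure D4:**
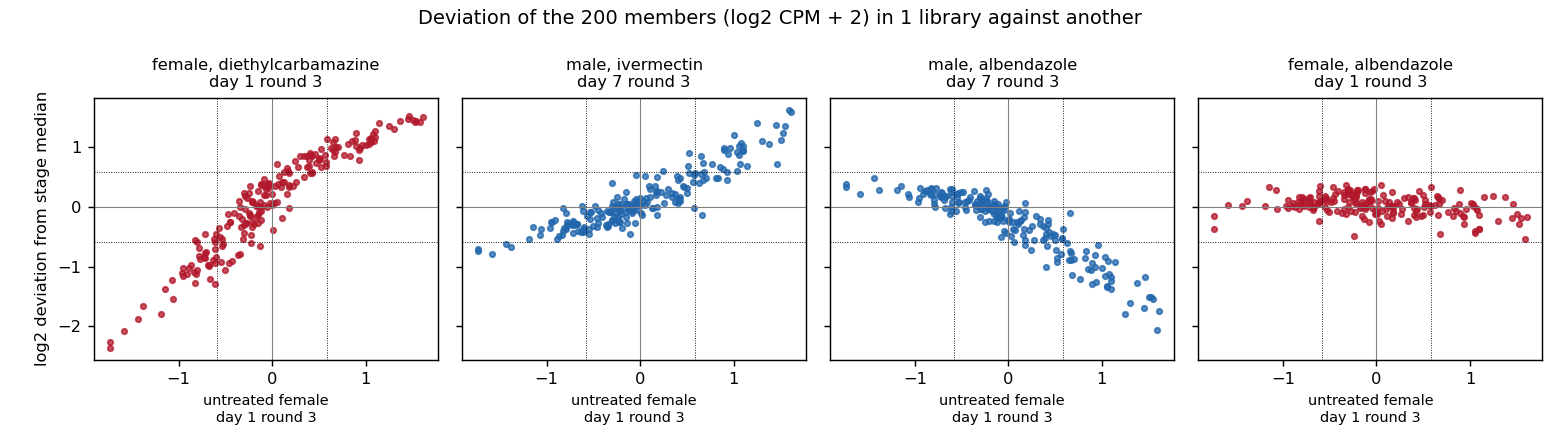
Log2 deviation (CPM + 2) of each of the 200 members from its stage median in the untreated females of day 1 round 3 (x axis) against 4 other libraries (y axis, named above each panel; red for females, which share the median with the x axis, and blue for males); dotted lines mark 1.5-fold. Points rise together for diethylcarbamazine females and ivermectin males, fall for albendazole males, and lie within the dotted lines of the y axis for albendazole females, where 0 members passed 1.5-fold.

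The first principal axis of the members' deviations held 59.9% of their variance over the 68 libraries. Scores on it were 11.27, 8.99 and 8.93 in the departing females (diethylcarbamazine, ivermectin, untreated), 6.51 in the ivermectin males, -7.93 and -5.77 in the albendazole and diethylcarbamazine males and -3.11 in the departing microfilaria library. The other libraries lay between -2.29 and 0.63 in females, -3.19 and 1.88 in males and -1.67 and 0.83 in microfilariae. The score of -3.19 was that of the untreated males of day 7 round 3. When the 7 libraries were left out, the first axis held 30.7% of the variance, and its loadings had an absolute r of 0.67 with the first ones. The 41 members higher in the departing females had a median untreated level of 394 CPM and the 29 lower ones 269 CPM, and their median untreated stage ratios were 1.36 and 1.34. Of the 41, 21 were highest in untreated females, a mean that includes one of the departing libraries.

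Single members show both extremes. WBGene00227855 was the steadiest over the drug-treated libraries, with an SD about the stage means of 0.08 on the log2 scale. Its CPM lay between 365 and 445 in untreated females (median 400), 320 and 365 in untreated males (median 346) and 438 and 476 in untreated microfilariae (median 462). In drug-treated worms the values were 362 to 434, 290 to 374 and 414 to 499, and the lowest of the males was the departing ivermectin library. WBGene00234098 came next with an SD of 0.10 and ran from 261 to 339 CPM over all females, 296 to 403 over all males and 303 to 395 over all microfilariae. Its stages overlapped, and it stayed within 1.5-fold of its stage median in all 68 libraries.

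WBGene00223629 was the least steady, with an SD of 0.60. It had 795 CPM in the untreated females of day 1 round 3, where the untreated female median was 241, and 771 CPM in the ivermectin females of that round, where the median of drug-treated females was 270. In males of day 7 round 3 it had 756 CPM with ivermectin, 56.6 CPM with albendazole and 89.0 CPM without treatment, against drug-treated and untreated male medians of 233 and 267. The lowest microfilaria library was the departing one, at 133 CPM. WBGene00234140, with an SD of 0.52, moved the opposite way: it had 108 CPM in the untreated and 69.4 CPM in the diethylcarbamazine females of day 1 round 3, against medians of 388 and 357, and in drug-treated males it was lowest with ivermectin (170 CPM) and highest with albendazole (374 CPM) in day 7 round 3. Among the most abundant members, WBGene00226158 moved like WBGene00223629, with 2280 CPM in the untreated females of day 1 round 3 against a median of 888, and 2717 CPM with ivermectin and 293 CPM with albendazole in the males of day 7 round 3. WBGene00233924 moved like WBGene00234140, with 736 CPM in the same untreated females against a median of 1298, and 761 and 1257 CPM in the same ivermectin and albendazole males.

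**Figure D5:**
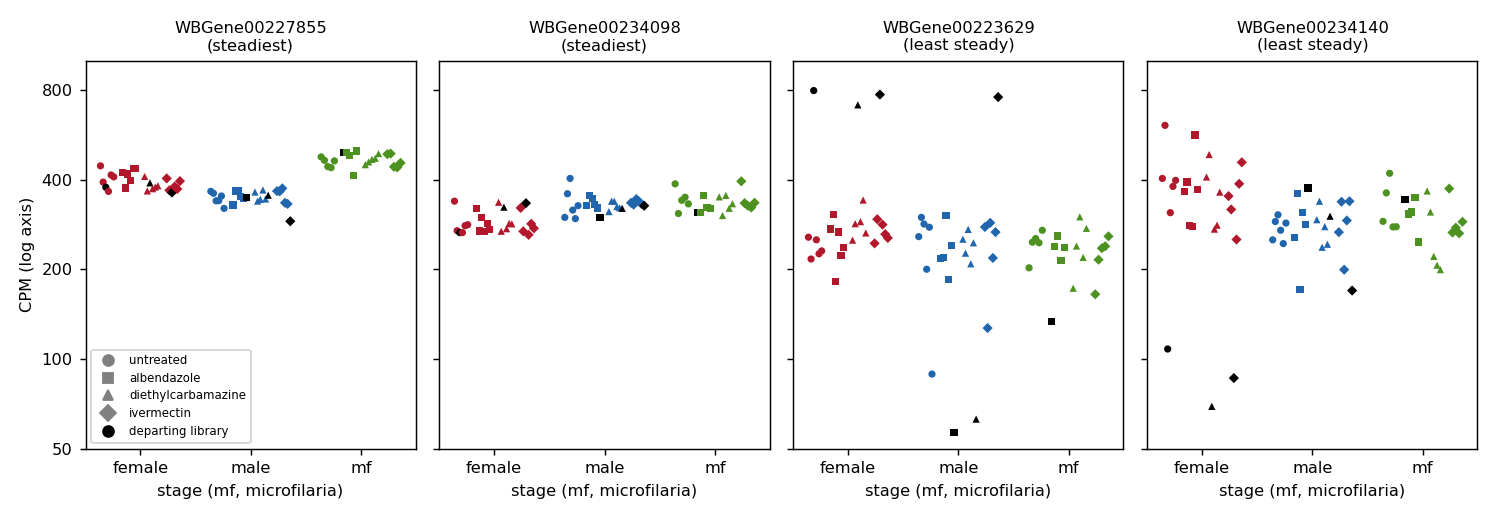
CPM on a log axis of the 2 steadiest and the 2 least steady members in all 68 libraries (points), by stage, with the treatment given by the symbol and the 7 departing libraries in black. WBGene00227855 stays between 290 and 499 CPM, while WBGene00223629 runs from 56.6 to 795 CPM, with the departing libraries at both ends.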

How the data were processed

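Raw read counts per gene were deposited by the authors as one whole-number count matrix of 11590 genes and 68 libraries, made with TopHat2 2.0.14 and HTSeq 0.6.1p1 per the submitters' processing notes, from strand-specific libraries per the labels' protocols. The genome build is not given in the sources used here. All columns were matched to samples by name, and 0 were left over.

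CPM was computed on library totals. The 200 members and all lists were chosen with earlier results of these data known. Stage contrasts were fitted on the 51 drug-treated libraries (18 groups). Drug, day and round were fitted within each stage. Tests used edgeR 4.0.16 in R 4.3.3 (glmQLFit and glmQLFTest, TMM, filterByExpr with a count minimum of 10, two-sided), with Benjamini-Hochberg adjustment over all genes tested and a threshold of 0.05; SEs and 95% intervals come from the same fit. The labels do not tie libraries to single gerbils, so p-values measure the spread between these samples. DESeq2 1.42.0 (Wald test), other scalings, no filter, left-out rounds and the round as a block were alternatives. The fits were also run on simulated counts with planted changes. Those counts were drawn independently for each library, without departing libraries, so the runs do not show how the fits handle paired rounds or departures.

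The series design makes the replicate number a round in which all treatments were run, so the numbers pair the samples. The correlation of deviations between same-numbered libraries had a median of 0.22 to 0.59 per stage and day (lowest single value -0.728, in males at day 7), and between different numbers -0.15 to -0.42.

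Named genes are the 5 most abundant members, those nearest each limit of the choice, the 2 steadiest and 2 least steady over drug-treated libraries, and in each comparison with calls the 2 with the smallest p per direction.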

Additional observations from a re-analysis of the deposited data

Results flagged for a closer look

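Dixon's test for a single value apart from its group was applied to 30 groups, the share of counts and the CPM of 9 named members in the untreated libraries of each stage, with both days in one group. Chance alone marks about 1 in 20 such groups. It marked 4, all in untreated females (n = 6). WBGene00223629 had 795.1 CPM in day 1 replicate 3, where the next value was 256.2 and the lowest 216.5. WBGene00226158 had 2280 CPM in the same library, where the next value was 1299 and the lowest 807.5. WBGene00223985 had 1568 CPM in day 1 replicate 1, where the next value was 1246 and the lowest 1115. WBGene00234098 had 338.5 CPM in day 1 replicate 1, where the next value was 282.2 and the lowest 265.5.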

How the results depend on the processing

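In the 18 drug comparisons and the 3 tests of stage by day, the number of members called was 0 under all alternatives run, and the 12 named stage differences kept their direction and call under each. For stage, leaving out a replicate gave 80 to 121 members for females against males, 68 to 150 for females against microfilariae and 82 to 149 for males against microfilariae. No share of all genes is set beside these ranges, so they show only how far the members' numbers moved. Between days, the replicate block called 68 members in drug-treated females; without the departing libraries it called 11 there and 6 each in untreated and drug-treated males (alternatives chosen after seeing the data). The block moved no other number of called members by over 1.5 times. For round, leaving out a replicate gave 81 to 143 members in females at day 1, 0 to 46 at day 7, 0 in males at day 1 and 20 to 56 in microfilariae at day 1. Library totals gave 1 member each in females at day 7 and males at day 1. Without the departing libraries the round counts were 90, 69, 34, 10 and 38 (females day 1 and 7, males day 1 and 7, microfilariae day 1), and without the male libraries with female-restricted counts 0 in males at day 1. The cause was not tested. At a stage ratio limit 25% above the lowest stage in place of 50%, 61 members qualified in pooled drug-treated libraries. For days 1 and 7 the numbers were 80 and 54 for albendazole, 38 and 56 for diethylcarbamazine and 55 and 59 for ivermectin. At a limit of 2, 200 qualified for diethylcarbamazine at day 1 on library totals. With TMM-scaled totals 97 members lay within 1.5-fold there and 33 beyond 2-fold. On library totals without the departing libraries 166 lay within 1.5-fold there. With 400 genes chosen in place of 200 the same 7 libraries departed, and with 100 genes also ivermectin males of day 1 round 2. Precision limits the drug comparisons. The median width of the 95% interval to either side was 0.58 in females, 0.34 in males and 0.28 to 0.35 in microfilariae (log2). These fits left out the round and pooled both days, so the width in females at day 7 also reflects the departing day 1 libraries. Without the departing libraries the median SD of members within female groups fell from 0.25 to 0.14.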
